A study of Rattus norvegicus with 4 samples.

Results

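The 10 genes described here encode immediate early transcription factors: Fos, Fosb and Fosl1, Jun, Junb and Jund, Egr1, Egr2 and Egr3, and Nr4a1. They were chosen by name, as the non-control probes whose gene name on the array is one of these symbols, and all 10 were found among 18857 named genes, on 14 probes. Matching the probes by accession to RefSeq gave the same 14. NR8383 is a macrophage line from normal rat lung lavage, grown partly attached and partly floating. Its cells, after 20 passages, were kept submerged in DMEM with 15% heat-inactivated fetal bovine serum, 2 mM glutamine, penicillin, streptomycin and amphotericin B. All 4 samples are replicates of this 1 untreated control, which the design text calls biological, so the spread between replicates is the comparison that can be made and nothing can be said of induction. The labels disagree on time, with 4 h submerged in one place and 48 h after seeding in another, so levels are given here without a duration.

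Immediate early genes are transcribed within minutes of a stimulus such as serum, a growth factor or a bacterial product, without new protein synthesis, and their transcripts usually decay fast. FOS proteins pair with JUN proteins through leucine zippers to form the AP-1 factor, while JUN proteins can also pair with each other. EGR proteins bind GC-rich DNA through zinc fingers, and NR4A1 is an orphan nuclear receptor. In macrophages these factors are known for the early response to microbial products, and EGR2 and JUNB also for differentiation and activation states.

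Each RNA, labelled with the dye Cy3, was read on its own Agilent rat array of 60-base probes. The 75th percentile of the signal was 958 to 1489 fluorescence units on the 4 arrays, and 10353 of the named genes (54.9%) had at least 1 probe well above background on all 4, which is what "detected" means below. The lowest signal well above background was 16.7, 18.4, 19.1 and 20.3 units on replicates 1 to 4. Of 13 macrophage markers 10 were detected, among them Cd68, Csf1r, Spi1 and Pparg, while Marco and Cd163 were well above background on no array and Adgre1 on 1. Of markers of other cell types, 2 of 10 epithelial (Ager and Foxj1), 4 of 8 fibroblast, 4 of 6 endothelial, 4 of 9 T and NK cell, 3 of 6 B cell and 2 of 6 neutrophil genes were detected. The detected ones were the fibroblast genes Col1a2, Dcn, Acta2 and Thy1, the endothelial genes Cdh5, Pecam1, Vwf and Eng, the T and NK cell genes Cd3d, Lck, Nkg7 and Gzmb, the B cell genes Cd79a, Pax5 and Cd22, and the neutrophil genes Mpo and Camp. Well above background on no array were, among others, Epcam, Cdh1, Col1a1, Col3a1, Lum, Pdgfra, Kdr, Tek, Cd3e, Cd3g, Cd2, Cd8a, Prf1, Ms4a1, Cd79b, Elane, S100a9 and Cxcr2. Each of these lists of other cell types thus holds both detected and undetected markers, and their part in the results was not tested. Thy1 was the 1 gene of these lists to pass the variance test described below.

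The probe decides which part of a transcript is read, so the probes behind the main results are shown first, 5′ to 3′ in the sense of the mRNA. Jun, Jund, Egr2 and Egr3 each have 2 probes, named here by the position in the transcript that the array files give. For Jund and for Egr3 the 2 probes are listed under different transcript records, so their positions are not on a shared scale. The Jun probe at 1790, the Jund probe at 981, the Egr3 probe at 1057 and the 1 Junb probe are given whole, and of the other probes 30 bases are given. They are the members with 2 probes, Junb, Fos as the founding member, and Nr4a1, which is printed on 10 spots. The Egr3 probe at 2490 is shown by its last 30 bases, in which capitals mark AATAAA, the polyadenylation signal, ahead of a closing run of 6 A. It is the 1 probe of the 14 that holds this signal.
Jun at 1790: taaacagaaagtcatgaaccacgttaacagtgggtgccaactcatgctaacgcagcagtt
Jun at 2436, first 30 bases: catgtttgtttgtttgggtgtcctacccag
Junb at 1245: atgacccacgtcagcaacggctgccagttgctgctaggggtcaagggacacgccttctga
Jund at 981: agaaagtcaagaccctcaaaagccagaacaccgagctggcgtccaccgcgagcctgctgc
Jund at 1618, first 30 bases: acgagtccacattcctgttccgtaatcctt
Egr2 at 1812, first 30 bases: tcgagctgcaaacactaccgcccttctgtg
Egr2 at 2848, first 30 bases: gctcttaatagttgtggaaagattaaacaa
Egr3 at 1057: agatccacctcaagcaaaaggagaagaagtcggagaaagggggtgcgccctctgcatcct
Egr3 at 2490, last 30 bases: ctggAATAAAgagaatttgtaggcaaaaaa
Fos at 1528, first 30 bases: caaaaaatcaaaagcaaccgcatggagtgt
Nr4a1 at 2342, first 30 bases: tccttccatgtgtacatagctgtcactcaa

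Of the 10 factors 6 were detected: Jun, Junb, Jund, Fosb, Egr2 and Nr4a1. That is 60% of the members against 54.9% of all named genes. The remaining 4 fell below the mark in different ways: Egr3 was well above background on 2 arrays, and Fos, Fosl1 and Egr1 on none. By this mark all 3 JUN genes were detected, as against 1 of 3 FOS genes and 1 of 3 EGR genes. The contrast depends on the flag, since Fos and Egr3 join with the software's flag for a signal positive and significant against background. It was not tested. Signals of different probes depend on the probe as well as on the transcript, so levels are compared between replicates and not between genes. A level is the log2 signal minus the log2 of the array's 75th percentile.

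**Figure D1:**
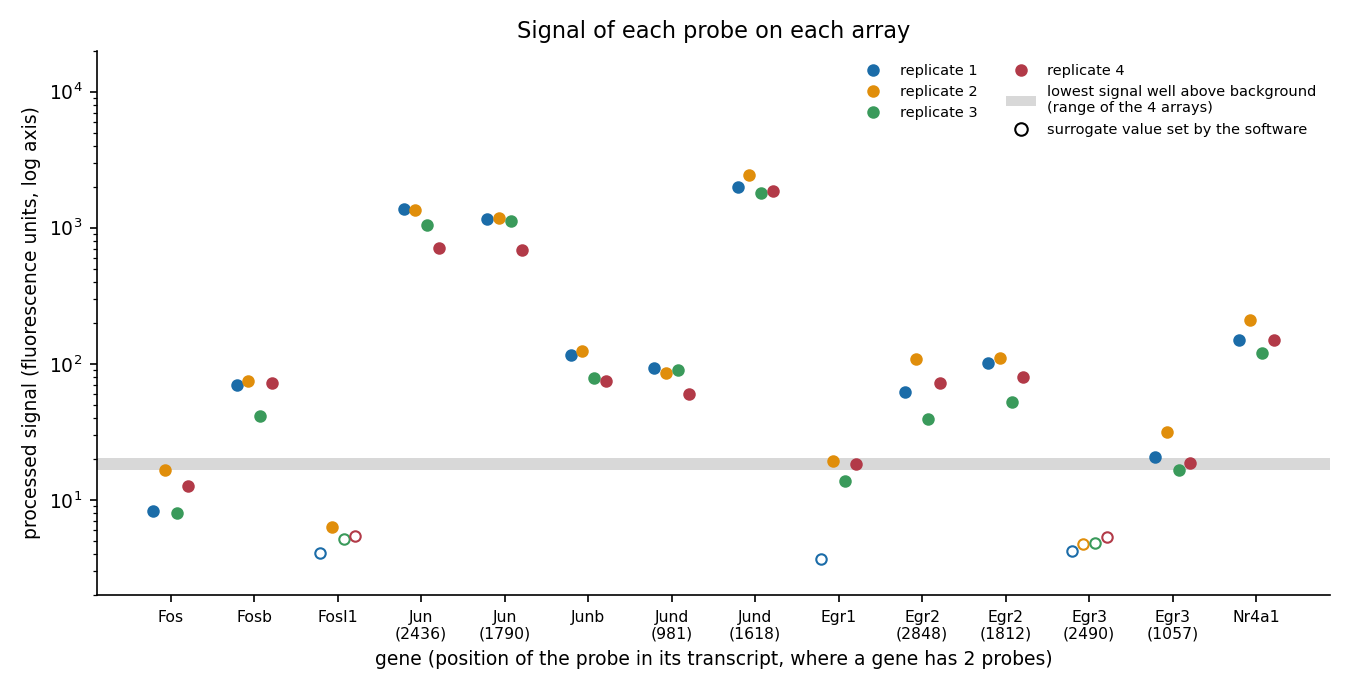
Processed signal in fluorescence units (log axis) of each of the 14 probes on each array, with 1 colour per replicate, open circles where the software set a surrogate value, and a grey band for the lowest signals well above background, 16.7 to 20.3 units. All points of Jun, Junb, Jund, Fosb, Egr2 and Nr4a1 lie above the band, those of Fos, Fosl1 and the Egr3 probe at 2490 below it, those of Egr1 within or below it, and those of the Egr3 probe at 1057 within or above it.

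Jun encodes the AP-1 subunit c-Jun. Its probe at 2436 (rn4 chromosome 5, 115358764 to 115358823, minus strand) is printed on 10 spots and read 1367, 1345, 1051 and 707 units on replicates 1 to 4. Relative to the array these were levels of 0.05, -0.15, -0.17 and -0.44, with a mean of -0.18 ± 0.20 (SD, n = 4). The standard error of the mean over the 10 spots of an array was 0.014 to 0.030, which covers the noise of spots within an array and not that of labelling, hybridisation or culture. The single spot of the probe at 1790 (115359410 to 115359469) read 1152, 1187, 1117 and 690.3 units, or levels of -0.19, -0.33, -0.08 and -0.47. Both Jun probes were lowest on replicate 4, and their order over the other 3 replicates differed.

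Jund encodes an AP-1 subunit whose gene is known for steady transcription in resting cells. Its probe at 1618 (rn4 chromosome 16, 19239707 to 19239766, minus strand) read 1999, 2433, 1816 and 1864 units, or levels of 0.60, 0.71, 0.62 and 0.96 (mean 0.72 ± 0.16). The probe at 981 (19240333 to 19240392) read 93.7, 85.5, 90.0 and 60.4 units, or levels of -3.81, -4.12, -3.71 and -3.99. Both probes were detected on every array, but they ordered the replicates differently: the brighter was highest on replicate 4, while the dimmer was highest on replicate 3 and lowest on replicate 2. The range over the 4 replicates was 1.28-fold for the first and 1.33-fold for the second.

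Junb encodes a JUN protein that can restrain c-Jun at some promoters. Its single spot (rn4 chromosome 19, 24832781 to 24832840, plus strand) read 116, 124, 78.9 and 74.9 units. As levels these were -3.51, -3.58, -3.90 and -3.68, a mean of -3.67 ± 0.17 and a 1.31-fold range. Replicate 3 was lowest once the arrays' overall brightness was taken into account. The errors given by the scanner software for this spot were 12.1, 13.0, 8.78 and 8.51 units on replicates 1 to 4.

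Among the FOS genes Fosb was the detected one. Its probe (rn4 chromosome 1, 78666646 to 78666705, minus strand) read 69.8, 75.2, 41.0 and 72.1 units, with errors given by the scanner software of 7.82, 8.52, 5.81 and 8.37. The levels were -4.24, -4.31, -4.84 and -3.73, a mean of -4.28 ± 0.46. Replicate 3 was lowest and replicate 4 highest, 2.16-fold apart, the widest range of the 6 detected genes by their brightest probes.

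Fos, the founding member, and Fosl1, which encodes FRA-1, were not well above background on any array. The 2 spots of the Fos probe (rn4 chromosome 6, 109561941 to 109562000, plus strand) averaged 8.22, 16.5, 7.94 and 12.6 units, with the spots of replicate 4 at 7.39 and 17.8, below the lowest well-measured signal of each array. The software nevertheless called Fos positive and significant against background on all 4 arrays, with p-values up to 0.0036. Fos is thus measured as a faint signal above the local background, and its level of -6.87 ± 0.50 is of low precision. Fosl1 (rn4 chromosome 1, 208099035 to 208099094) read 6.34 units on replicate 2, where it was positive and significant. On the other 3 arrays the software replaced its signal by a surrogate value, of 4.08 to 5.45 units, because it did not differ from background. A surrogate is a bound set by the software, so Fosl1 has no measured level on those arrays.

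Among the EGR genes Egr2, also called Krox20, was detected by both of its probes. The probe at 1812 (rn4 chromosome 20, 21884977 to 21885036, minus strand) read 102, 109.6, 52.4 and 79.6 units, with software errors of 7.20 to 11.9. Its levels were -3.69, -3.76, -4.49 and -3.59, a mean of -3.88 ± 0.41. The probe at 2848 (21883940 to 21883999) read 61.8, 108, 39.5 and 72.4 units, or levels of -4.41, -3.79, -4.90 and -3.73. Both probes were lowest on replicate 3 and highest on replicate 4, and they parted on replicate 1, which lay 0.20 above the mean of the first and 0.21 below that of the second. The ranges were 1.87-fold and 2.25-fold.

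Egr1, also called Krox24 or NGFI-A, was not well above background on any array by its 1 probe (rn4 chromosome 18, 27346058 to 27346117). It read 19.3, 13.9 and 18.3 units on replicates 2 to 4, where it was positive and significant, and had a surrogate of 3.69 units on replicate 1. The 6.82-fold range of its listed levels therefore rests on the surrogate, and the 3 measured levels were -6.27, -6.41 and -5.71. Egr3 gave unlike results on its 2 probes. The probe at 1057 (rn4 chromosome 15, 50479803 to 50479862) read 20.8, 31.8, 16.7 and 18.5 units, was well above background on replicates 1 and 2, and was positive and significant on all 4. The probe at 2490, which spans the polyadenylation signal and is listed as unmapped in the genome, had surrogates of 4.21 to 5.32 units on all 4 arrays. How the position of a probe bears on its signal was not tested.

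Nr4a1, which encodes NUR77, was detected by its 1 probe, printed on 10 spots (rn4 chromosome 7, 140020442 to 140020501, plus strand). The spots averaged 149.7, 209, 121 and 150.4 units on replicates 1 to 4. The levels were -3.14, -2.84, -3.29 and -2.68, a mean of -2.99 ± 0.28 and a range of 1.53-fold. The standard error over the spots of an array was 0.039 to 0.054. Replicates 2 and 4 were the higher pair and replicates 1 and 3 the lower.

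The replicates were then tested for unequal spread. The variance of each of 19400 probes that were detected throughout was compared in limma with a prior that depends on signal, with Benjamini-Hochberg adjustment. Of all probes 33 (0.17%) passed at 0.05, and by brightest detected probe 15 of 10353 genes (0.145%). That gene count was 0 without replicate 3, 34 without replicate 1 and 23 without replicate 2, while the count of members was 0 in each case. None of the 6 detected members passed in limma, and their adjusted p lay between 0.83 (Fosb) and 0.996 (Junb). None of these 6 had an unadjusted p below 0.05, although the second Egr2 probe, at 2848, did (0.025, adjusted 0.61). Of all 19400 probes 1261 had an unadjusted p below 0.05. A p above the threshold does not show that the replicates were alike.

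The median SD of the 6 detected members was 0.24, against 0.11 for all detected genes, and the median range was 1.47-fold against 1.19-fold. Dim genes vary more, and 4 of the 6 lie below a level of -2. For those 4, which are Fosb, Junb, Egr2 and Nr4a1, the median SD was 0.34, beside 0.17 for the 3496 detected genes below the same level. Fosb varied more than 97.2% of all detected genes, Egr2 more than 96.2%, Nr4a1 more than 90.8%, Jun more than 81.8%, and Junb and Jund each at least 73.1%. These shares describe 4 arrays and carry no test.

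**Figure D2:**
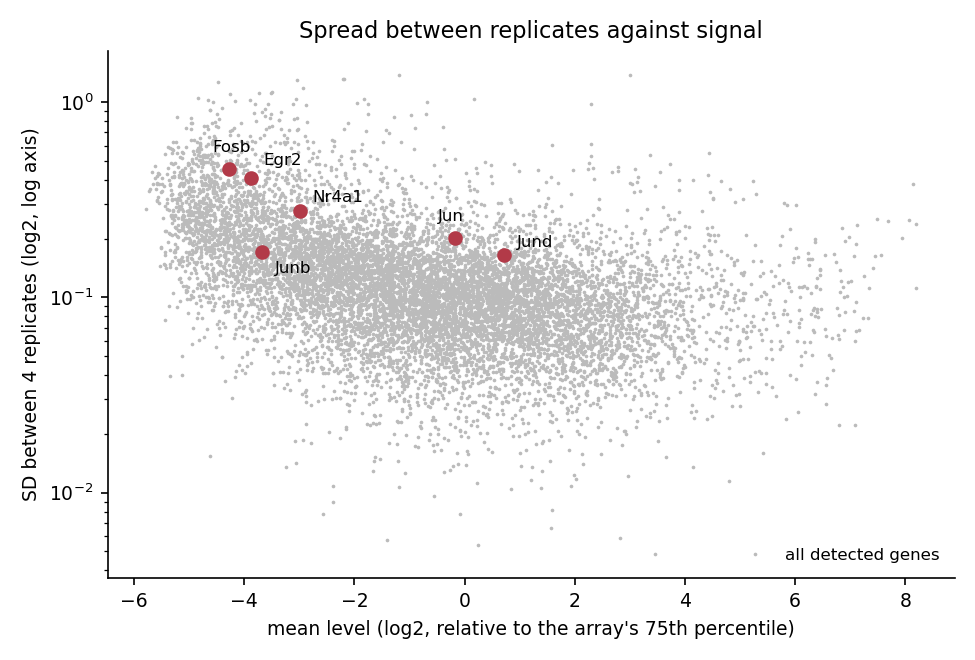
SD between the 4 replicates (log2, log axis) against mean level (log2, relative to the array's 75th percentile), with 1 grey point per detected gene and the 6 detected factors in red. Spread widens towards low levels, and Fosb (0.46) and Egr2 (0.41) lie in the upper part of the cloud at their level, while Junb (0.17) lies in its middle.

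The 4 dim members had their lowest array in common. Fosb, Junb, Egr2 and Nr4a1 were all lowest on replicate 3, at 0.56, 0.23, 0.61 and 0.30 below their own means. Fosb, Egr2 and Nr4a1 were highest on replicate 4. Jun ran the other way, with its lowest level on replicate 4. Jund was highest on replicate 4 by its probe at 1618, while its dimmer probe at 981 was highest on replicate 3. Among all 10353 detected genes 27.9% were lowest on replicate 3 and 32.1% highest on replicate 4, and among those below a level of -2 the shares were 30.7% and 36.3%. The median deviation of these dim genes was -0.02 on replicate 3 and 0.04 on replicate 4, beside -0.43 and 0.30 for the 4 dim members. The order and the size of these deviations depend on the background correction and on the scale. With normexp background correction Fosb, Junb, Egr2 and Nr4a1 were still lowest on replicate 3. Their deviations there were smaller, at -0.24, -0.17, -0.30 and -0.19. Jun was then highest on replicate 3 and the other 5 genes on replicate 4. With spike-in scaling, chosen after seeing the data, the 6 genes were highest on replicate 1 in 4 cases and on replicate 2 in 2. Fosb, Egr2 and Nr4a1 were still lowest on replicate 3, while Jun, Junb and Jund were lowest on replicate 4. That scaling moves the arrays by up to 0.99 log2 units against each other, because the spike-in probes lay 1.86, 1.87, 2.46 and 2.85 above the 75th percentile on replicates 1 to 4.

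**Figure D3:**
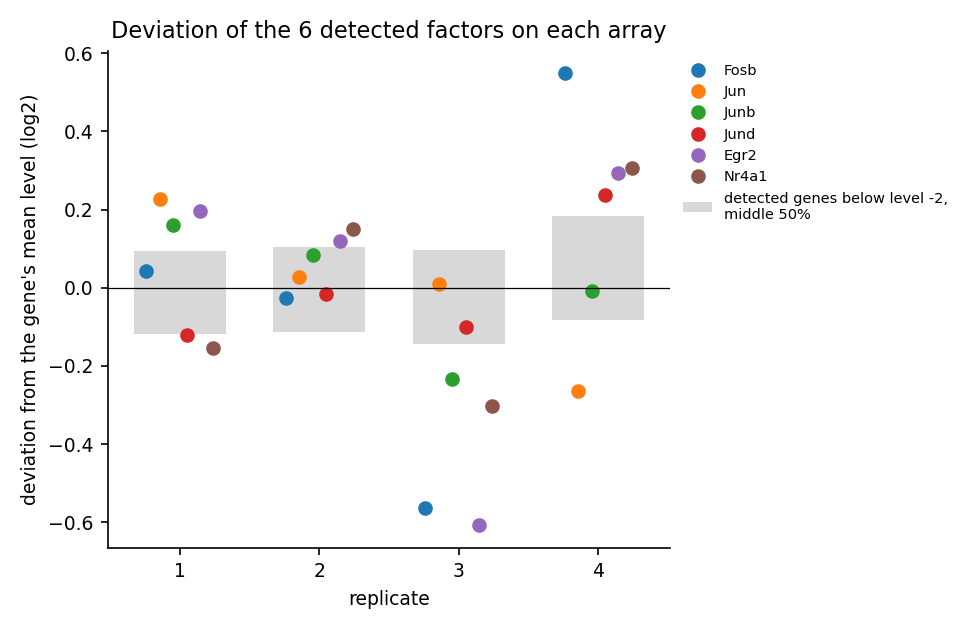
Deviation of each of the 6 detected factors from its own mean level (log2) on each replicate, by its brightest detected probe. A grey box marks the middle 50% of the 3496 detected genes below a level of -2. On replicate 3 Fosb, Egr2, Nr4a1 and Junb lie below the box, and on replicate 4 Fosb, Egr2, Nr4a1 and Jund lie above it while Jun lies below.

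Many proteins besides FOS and JUN enter AP-1 dimers. Of 12 genes for other leucine zipper proteins that pair with FOS or JUN 11 were detected (91.7%, beside 54.9% of named genes), and the exception was Batf, which passed on 1 array. Detected partners included the FOS relative Fosl2 (-1.63 ± 0.33) and the stress-responsive repressor Atf3 (-1.19 ± 0.24). Jdp2, a repressor that binds c-Jun, lay at 1.22 ± 0.14. Fosl2 was detected by all 3 of its probes, so that with Fosb 2 of the 4 FOS family genes were detected. These are counts without a test of the list.

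Relatives of the EGR and NR4A factors were detected in 3 of 5 cases (60%). The EGR corepressors Nab1 (0.72 ± 0.19) and Nab2 (0.13 ± 0.14) and the receptor Nr4a2 (-4.88 ± 0.19) were detected, while Egr4 had a surrogate on all 4 arrays and Nr4a3 on 3. Each of the 3 detected genes rests on a part of its probes, 2 of 4 for Nab1, 1 of 2 for Nab2 and 1 of 3 for Nr4a2. With every probe required none of the 5 would count.

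Other immediate early genes gave 16 of 26 (61.5%). The first in the list to be detected were Ier2 (0.72 ± 0.10), Ier3 (-1.49 ± 0.16), Ier5 (1.99 ± 0.14) and Klf4 (-2.08 ± 0.07), the last a zinc finger factor of myeloid cells. The first not to be were Klf2, Btg2, Dusp1, which encodes a MAP kinase phosphatase, and Zfp36, which encodes the mRNA decay factor tristetraprolin. Of the 10 genes not detected 6 had a surrogate on all 4 arrays, Klf2 and Btg2 among them, and 2, Ccn1 and Hes1, were positive and significant on all 4. Dusp1 was positive and significant on 2 arrays and Zfp36 on 3. The share detected is near that of all named genes.

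The factors that act on promoters of immediate early genes, namely SRF, its ternary complex and myocardin-related cofactors, MEF2 and CREB proteins, gave 12 of 14 (85.7%), with Srf at 0.76 ± 0.10, Elk1 at -2.51 ± 0.15 and Creb1 at -0.92 ± 0.13. Mef2c had a surrogate on all 4 arrays and Mrtfb passed on 2. RAS and MAP kinase genes gave 19 of 20 (95%), and the exception, Mapk10, encodes JNK3, a kinase known mainly from the nervous system. The share of all named genes detected was 54.9%. With every probe of a gene required, the factors that act on promoters would number 10 and the kinase genes 15. The JNK1 and JNK2 genes Mapk8 (-3.68 ± 0.14) and Mapk9 (-0.60 ± 0.04), whose products phosphorylate c-Jun, were detected, as was Mapk3 (5.05 ± 0.32). These arrays measure transcripts and not kinase activity.

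Genes known from other work as targets of AP-1 or EGR factors gave 11 of 18 (61.1%). The first to be detected were the gelatinase Mmp9 (-1.50 ± 0.40), the urokinase receptor Plaur (-2.32 ± 0.20), the cyclin Ccnd1 (0.90 ± 0.13) and the hyaluronan receptor Cd44 (2.92 ± 0.19). The first not to be were Mmp13 (well above background on 3 arrays), Plau (on 2), Spp1 and Il6 (on none). Mmp9 was lowest on replicate 3, at -1.98, and highest on replicate 2, at -1.08. Ccnd1, Cd44, Timp1, Tnf, Ccl2 and Tgfb1 were also lowest on replicate 3, while Plaur, Hmox1, Il1b and Pdgfa were not. Over all detected genes 27.9% were lowest on replicate 3. None of the genes of these 6 lists passed the variance test in limma. In limma an unadjusted p below 0.05 was given to 4 of 11 detected target genes and 2 of 16 other immediate early genes. It was also given to 1 of 11 leucine zipper partners and 1 of 19 kinase genes. Over the whole array 1261 of 19400 detected probes had such a p, and no list was tested as a set.

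**Figure D4:**
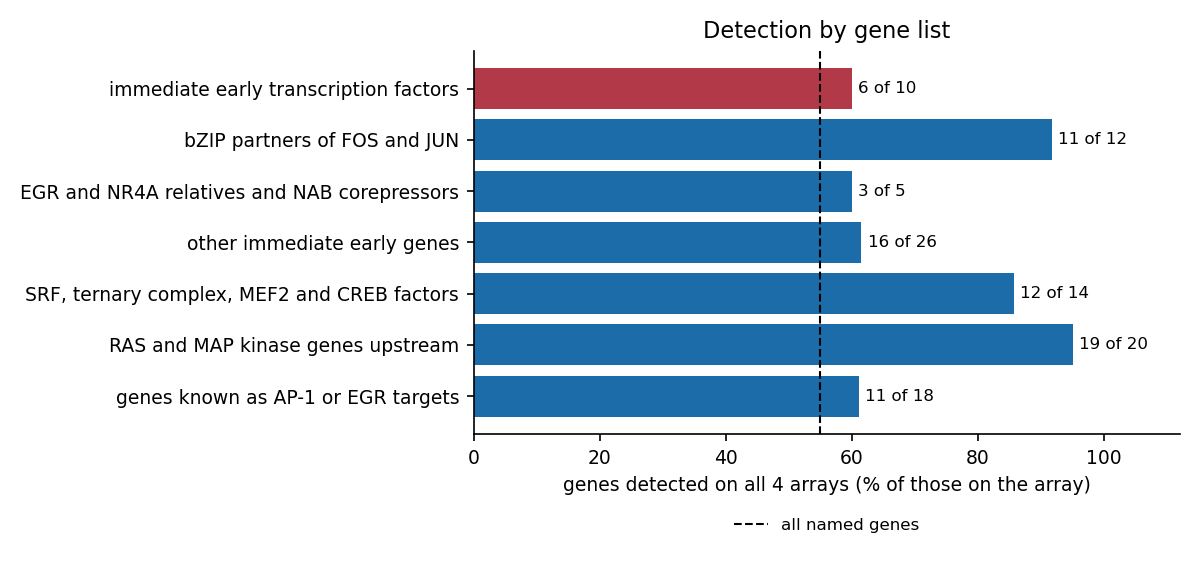
Share of genes detected on all 4 arrays in percent of those on the array, as bars for the 10 immediate early factors (red) and 6 related lists (blue), with the count at each bar and a dashed line at 54.9% for all named genes. The bars for the 10 factors, other immediate early genes, EGR and NR4A relatives and target genes end near the line, and those for leucine zipper partners, upstream factors and kinases end well to its right.

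Immediate early promoters are known for short response elements close to the start. RefSeq windows of GRCr8 were available for 7 of the 10 genes, and Fos, Jun and Egr3 had no entry. In the 250 bases before the start of each gene, both strands were searched for TGACTCA (the AP-1 site), TGACGTCA (the full cAMP response element, CRE), GCGGGGGCG and GCGTGGGCG (EGR sites) and the CArG box bound by SRF. CArG boxes were found before Egr1, where there were 2, and Egr2, as in 1.5% of 33469 promoters. The full CRE (1.59% of promoters) and GCGTGGGCG (0.478%) were found before Jund, and GCGGGGGCG (2.45%) before Nr4a1. TGACTCA, present in 4.05% of promoters, was in none of the 7. The shorter site TGACG, added after the sequences were seen and contained in the full CRE, was found before 6 of the 7, all but Fosb, and in 18.2% of promoters. It occurs 4 times before Nr4a1.

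The windows of Egr2, Jund and Nr4a1 are shown because these genes were detected and their windows hold the longer motifs. Each runs 5′ to 3′ on the strand of the gene and ends on the base before the start. Capitals mark the matches: in Egr2 a CArG box and a TGACG site, in Jund the full CRE, a TGACG site and GCGTGGGCG, and in Nr4a1 4 TGACG sites and the reverse complement of GCGGGGGCG, with single TGACG sites standing as their reverse complement, CGTCA. They lie at chr20:21054442-21054691 (minus strand), chr16:18769772-18770021 (minus) and chr7:134259888-134260137 (plus) of GRCr8. For Egr2, Nr4a1 and Fosb the start used in the table lies inside the annotated gene, so other starts exist.
Egr2: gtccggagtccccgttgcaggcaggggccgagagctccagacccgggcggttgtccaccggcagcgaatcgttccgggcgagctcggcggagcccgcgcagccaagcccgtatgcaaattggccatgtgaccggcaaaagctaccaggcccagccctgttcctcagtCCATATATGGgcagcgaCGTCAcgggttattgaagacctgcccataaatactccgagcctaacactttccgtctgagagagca
Jund: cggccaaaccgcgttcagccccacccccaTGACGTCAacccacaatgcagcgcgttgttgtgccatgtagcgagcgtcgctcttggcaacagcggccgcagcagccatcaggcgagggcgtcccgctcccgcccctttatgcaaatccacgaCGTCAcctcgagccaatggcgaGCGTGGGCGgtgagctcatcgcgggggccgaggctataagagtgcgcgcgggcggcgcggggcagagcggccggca
Nr4a1: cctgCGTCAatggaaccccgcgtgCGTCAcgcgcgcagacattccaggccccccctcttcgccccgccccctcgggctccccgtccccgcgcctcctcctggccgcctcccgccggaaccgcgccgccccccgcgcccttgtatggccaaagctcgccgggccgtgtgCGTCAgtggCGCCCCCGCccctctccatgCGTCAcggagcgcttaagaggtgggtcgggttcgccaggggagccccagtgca

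**Figure D5:**
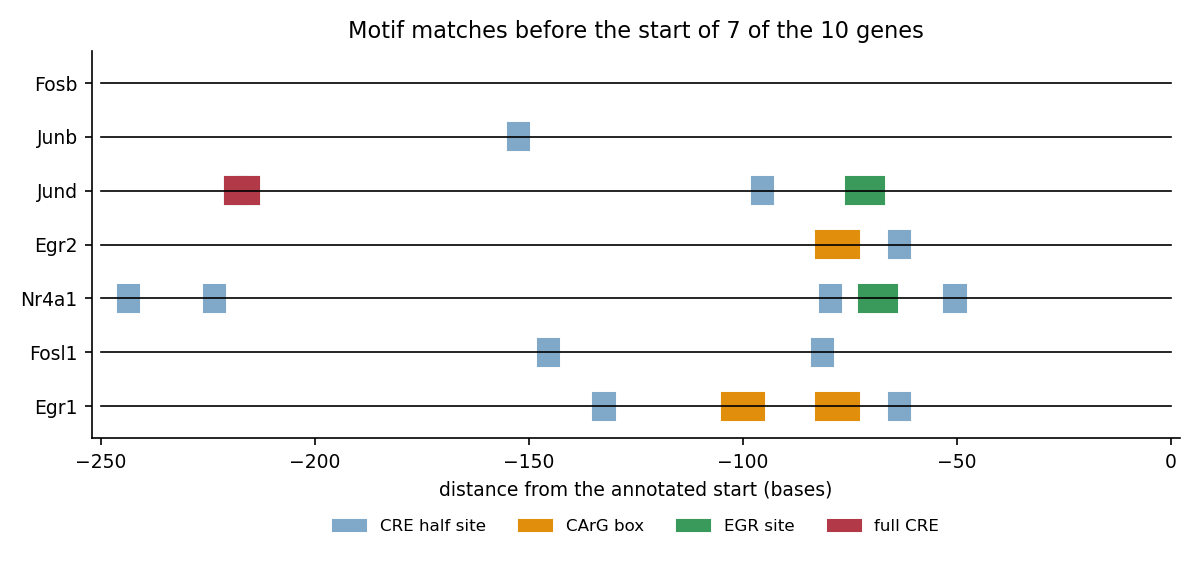
Positions of motif matches in the 250 bases before the annotated start of 7 genes, as coloured boxes on 1 line per gene, with distance from the start in bases on the x axis. The Egr1 and Egr2 lines each hold a CArG box at -83 to -74, Jund an EGR site at -76 to -68 and Nr4a1 one at -73 to -65, and the line of Fosb is empty.

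The 7 windows had a median GC content of 63.2% (43.6% to 74.8%), beside 51.2% for all promoters in the table. Egr1 and Egr2 share the CArG box at the same distance, and Egr2 but not Egr1 was detected here. A match is a description of letters, and no binding was measured in these samples.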

How the data were processed

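The deposited files are the scanner output of 4 arrays, 1 per sample, made by Agilent Feature Extraction, version 11.0.1.1 by the file headers and by the submitters' processing notes. Per the file headers, the values are fluorescence intensity per spot, background-corrected and detrended by the software and not normalized between arrays, with the software's flags. The p-value of a spot against background is likewise the software's, as deposited. The headers give the same slide and scan for the 4 arrays, which leaves no batch of slide or scan to test. Earlier steps, such as culture and labelling, are not covered by this. Replicates 1 to 4 had 11338, 11286, 10804 and 10649 named genes well above background, and surrogates at 15118, 15294, 18016 and 18497 non-control spots. The cause of these differences was not tested. RNA input was 100 ng with an integrity number above 7.5, per the labels. The number of arrays limits the precision.

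Each array held 58717 non-control spots for 45598 probes, and none was saturated. The log2 intensity was centred on the array's 75th percentile over all non-control spots. Flagged non-uniform or outlier spots were then left out, and the remaining replicate spots were averaged per probe. Detection of a probe needed over 0.5 of its spots well above background. The level of a gene is read from the brightest detected probe, or, with none detected, from the brightest. RefSeq GRCr8 names were assigned to probes by accession (23863), symbol (5124) or older symbol (354). Probe coordinates come from the files (rn4), which name no exon or UTR. Promoter sequences are RefSeq's, on GRCr8. Batf2 was not matched.

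The variance test used limma 3.58.1 in R 4.3.3 on all detected probes. It was also run on simulated data whose spread did not depend on signal, so the part of the prior that follows signal was not checked. Tables and figures used Python 3.11.15, pandas 2.3.3, numpy 2.4.6 and matplotlib 3.10.9. The members and lists were chosen with earlier results of these data known. All 10 members are named. Of other lists the text names the undetected genes where 5 or fewer, else the detected where 5 or fewer, else the first 4 of each, with any gene past the variance test. Further list genes given as examples, such as Fosl2, Atf3, Jdp2, Nab1, Srf, Ccn1, the kinases and further cell type markers, were chosen after their values were seen. No gene of like pattern was sought, since 4 replicates of 1 group hold no pattern over conditions. Alternatives were another detection flag, 2 arrays or every probe for detection, flagged spots kept, quantile normalization, normexp correction (offset 50), scaling to detected probes or spike-ins, means over probes, other priors, no filter on dim probes, a threshold of 0.01 and single replicates left out.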

Additional observations from a re-analysis of the deposited data

How the results depend on the processing

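No paired analysis was possible because all 4 samples are of 1 group. Scaling to spike-ins was added after seeing the data. Detected members numbered 6 with flagged spots kept, with every probe required and without any single replicate. They numbered 7 with detection on at least 2 arrays, where Egr3 joins, and 8 with the positive and significant flag, where Fos and Egr3 join. Members whose probes disagreed in detection rose from 0 to 1 (Egr3) with that flag and numbered 0 to 0 with a replicate left out. The list of EGR and NR4A relatives fell from 3 to 0 with every probe required. Under the same setting the factors that act on promoters fell from 12 to 10 and the kinase genes from 19 to 15. Leucine zipper partners fell from 11 to 10, other immediate early genes from 16 to 14 and target genes from 11 to 10.

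No member passed the variance test under any setting run. The count over all genes, 15, depended on the settings: it fell to 0 with a prior lacking the robust step or the trend, 0 at a threshold of 0.01 and 0 with spike-in scaling, rose to 119 with normexp and 502 where dim probes were tested too, and it ran from 0 to 34 over the fits that omit 1 replicate. The median SD of the detected members was 0.58 with spike-in scaling, where that of all detected genes was 0.50, and between 0.19 and 0.28 under the other settings. Means over probes moved the levels of 2 of the 10 genes by more than their SD, normexp those of 9, and spike-in scaling and scaling to detected probes, which shift whole arrays, those of all 10. The cause was not tested. Genes near background, here Fos, Fosl1, Egr1 and Egr3, have levels limited by signal over background, and entered the variance test only where dim probes were tested too, with a smallest adjusted p of 0.23 among the members in limma.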
